A study of Homo sapiens with 6 samples.

Results

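The genes described here are 42 genes of the ATF4 and unfolded protein responses, chosen by symbol from the 60675 genes of the count table, in which each had 1 row. They were followed in RNA of SUM159 cells, a human triple-negative breast cancer line, profiled to find expression altered by knockout of DAPK3, also called ZIPK, a kinase that acts in cell death and contractility. The 3 libraries labelled DAPK3 KO (KO R1, R2 and R3) came from knockout line number 3, and the 3 libraries labelled control (control R1, R2 and R3) from SUM159 cells of genotype DAPK3 WT. The labels name no other line and do not say whether line 3 is a single clone, or how the control cells were made. Nothing in them says that replicates were grown separately, so the spread between libraries behind each p-value may be technical. All cells shared 1 medium, Ham's F-12, to which serum (5%), HEPES (10 mM), hydrocortisone (1 μg/mL) and insulin (5 μg/mL) had been added.

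The unfolded protein response begins when the sensors PERK (gene EIF2AK3), IRE1 (ERN1) and ATF6 detect unfolded proteins in the endoplasmic reticulum (ER). ATF6 and the spliced form of XBP1, made through IRE1, induce ER chaperones and genes of ER-associated degradation. PERK, like other kinases of the same translation factor, slows translation while raising that of ATF4, a bZIP transcription factor that induces amino acid synthesis and transport genes and, under lasting stress, regulators such as CHOP (DDIT3) and TRIB3. ATF4 is controlled largely by translation and XBP1 by splicing, neither of which gene-level RNA counts show.

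DAPK3 (ENSG00000167657, chromosome 19, 3958453 to 3971123) did not follow the labels of KO R2 and control R2, at 13.1, 27.2 and 11.2 CPM in the KO libraries, against 26.2, 10.5 and 26.1 CPM in the control libraries, given here as in all sentences below in the order R1, R2 and R3. Summed counts were 16312184 to 22970823 in KO, 20038423 to 20648316 in control libraries. CPM is the count scaled to the library total (per 1000000) with TMM factors of 0.991 to 1.015. The labels were kept, and each comparison was also made without both R2 libraries, a choice that rests on earlier results of these data. A first principal component with 74.4% of the variance also set KO R2 beside control R1 and R3, and control R2 beside KO R1 and R3. Mitochondrial mRNAs took 4.16% to 5.43% of counts in KO and 4.39% to 6.85% in control libraries, the highest being control R3. Genes with a count numbered 20406 to 21038 in KO and 21184 to 21881 in control libraries, without overlap, and the part of this in the results was not tested. EPCAM and CDH1, epithelial markers, had at most 1 count in any library, while KRT8, KRT18, VIM and FN1 were present throughout. ERBB2 stood at 52.2 to 59.4 CPM in KO and 67.9 to 97.7 in control libraries, ESR1 at most at 0.478 CPM, and PGR had 0 counts, which allows up to 3 counts per library. Summed markers ran from 0.434 to 1.81 CPM in KO and 1.56 to 1.77 in control libraries for 3 endothelial genes, with CDH5 at 0 counts, and from 0.0868 to 0.433 CPM in KO and 0.0478 to 0.489 in control libraries for 3 adipocyte genes.

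Promoter sequence was matched for 38 of the 42 genes in RefSeq (GRCh38.p14, 250 bases before to 50 bases after each start site). The ER stress response element (ERSE), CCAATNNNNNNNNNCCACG on either strand, occurred in 6 of these genes: HSPA5, HSP90B1, PDIA6, CALR and CRELD2 of the ER chaperone arm, and XBP1. Of all 35116 promoter windows, 0.0769% held it. The core of the C/EBP-ATF response element (CARE), TGATGNAA on either strand, occurred in CEBPG, ASNS, SLC3A2, SLC1A5, CHAC1 and HERPUD1, and in 3.62% of all windows. Both shares count windows, whereas a gene was counted if any of its windows held the motif, and several genes had multiple windows. None of these 38 genes held both motifs. The genes without a matched sequence were PSPH, SHMT2, ALDH1L2 and NUPR1. The windows below belong to the genes that held a searched motif and passed the test without both R2 libraries. Capitals mark, as spelled or as its reverse complement, the ERSE in the first 4 and the CARE core in SLC3A2.

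CRELD2 (chr22:49918384-49918683, plus strand): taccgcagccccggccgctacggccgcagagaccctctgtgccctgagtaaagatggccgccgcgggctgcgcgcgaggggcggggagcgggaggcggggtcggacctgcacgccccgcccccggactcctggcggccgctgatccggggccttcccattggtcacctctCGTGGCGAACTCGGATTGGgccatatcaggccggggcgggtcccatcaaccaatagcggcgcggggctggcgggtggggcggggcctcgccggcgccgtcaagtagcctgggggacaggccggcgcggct

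CALR (chr19:12938359-12938658, plus strand): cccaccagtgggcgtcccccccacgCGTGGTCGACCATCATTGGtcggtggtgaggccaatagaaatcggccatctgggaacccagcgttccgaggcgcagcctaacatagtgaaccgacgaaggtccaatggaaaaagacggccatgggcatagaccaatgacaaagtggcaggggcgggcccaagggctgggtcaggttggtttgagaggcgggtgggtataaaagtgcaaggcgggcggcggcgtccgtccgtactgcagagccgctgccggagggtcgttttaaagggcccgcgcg

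PDIA6 (chr2:10812736-10813035, minus strand): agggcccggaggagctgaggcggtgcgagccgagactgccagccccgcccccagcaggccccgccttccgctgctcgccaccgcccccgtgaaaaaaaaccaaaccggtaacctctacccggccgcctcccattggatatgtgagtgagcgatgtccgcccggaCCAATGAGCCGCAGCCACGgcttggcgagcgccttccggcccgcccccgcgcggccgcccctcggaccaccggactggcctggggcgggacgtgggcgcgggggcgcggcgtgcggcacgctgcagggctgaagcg

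HSP90B1 (chr12:103930160-103930459, plus strand): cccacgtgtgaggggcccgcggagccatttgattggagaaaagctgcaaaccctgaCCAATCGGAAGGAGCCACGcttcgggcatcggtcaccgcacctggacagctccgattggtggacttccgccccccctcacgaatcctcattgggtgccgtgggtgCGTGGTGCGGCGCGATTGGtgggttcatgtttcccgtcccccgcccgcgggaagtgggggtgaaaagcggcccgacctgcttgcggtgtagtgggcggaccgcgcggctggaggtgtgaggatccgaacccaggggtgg

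SLC3A2 (chr11:62881449-62881748, plus strand): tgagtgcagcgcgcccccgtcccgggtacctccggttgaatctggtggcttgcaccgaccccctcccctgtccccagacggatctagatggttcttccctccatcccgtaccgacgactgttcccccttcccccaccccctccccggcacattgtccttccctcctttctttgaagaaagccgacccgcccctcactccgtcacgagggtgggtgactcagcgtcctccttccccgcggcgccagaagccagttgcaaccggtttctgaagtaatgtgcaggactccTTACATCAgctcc

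HSP90B1 held 2 such elements, from -194 to -176 and from -89 to -71 relative to the start site. CRELD2 held its element from -80 to -62, CALR from -225 to -207 and PDIA6 from -86 to -68. The PDIA6 window is that of 1 of its 2 listed start sites, and the SLC3A2 window, with the CARE core from 38 to 45, that of 1 of 3. A match describes these letters and does not show binding.

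Between all 3 KO and all 3 control libraries, none of the 42 genes passed the test. Among the ATF4 stress outputs 6 of 9 genes were higher in every KO library than in any control library, and in the ER chaperone arm 3 of 11 genes were lower and 1 higher in every KO library. edgeR's quasi-likelihood test with Benjamini-Hochberg adjustment called 0 of 14613 genes tested (0%), and so 0 of the 42. At an unadjusted p under 0.05, 9 of the 42 (21.4%) were higher and 4 (9.52%) lower, against 3.49% and 4.17% of all genes. The KO libraries were all above the control libraries in 11 of the 42 (26.2%) and all below them in 3 (7.14%), against 6.97% and 6.86% of all genes. The 42 were chosen with earlier results of these data known, and all genes were not matched to them in expression level. Differences between these shares were not tested. The median log2 fold change, KO over control, was 0.26 over the 42 genes and -0.00034 over all genes. In bulk RNA, fewer cells with a transcript and less of it per cell cannot be told apart.

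**Figure D1:**
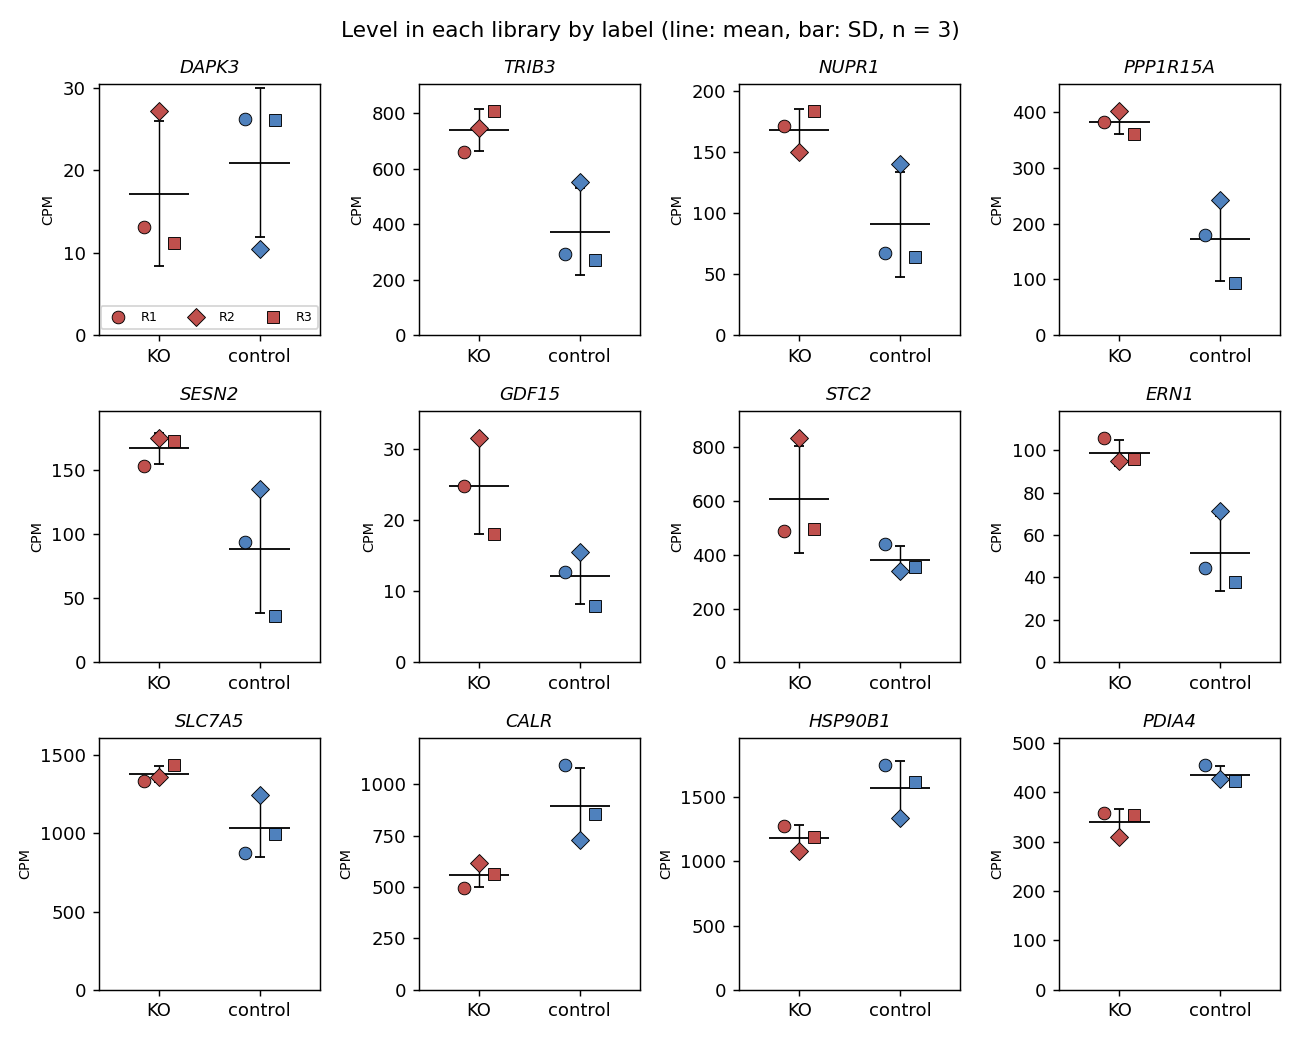
CPM of DAPK3 and 11 of the 42 genes in each library, with KO left of control in each panel; symbols mark R1 (circle), R2 (diamond) and R3 (square), lines the mean and bars the SD (n = 3). DAPK3 overlaps between the labels because both R2 libraries cross. The 11 genes shown all come from those whose groups did not overlap. Of the 42, those were 11 with KO higher and 3 with KO lower (26.2% and 7.14%, against 6.97% and 6.86% of all genes). PSAT1, DNAJB9 and ATF6, with KO higher, also did not overlap and are not shown.

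The stress outputs and feedback regulators come first. TRIB3 (ENSG00000101255, chromosome 20, 362835 to 397559), a pseudokinase that restrains ATF4 signalling, stood at 662, 747 and 810.4 CPM in the KO libraries, against 294, 554 and 272 CPM in the control libraries. Its groups did not overlap, and control R2 lay between the other control libraries and the KO libraries. The log2 fold change was 0.99 (SE 0.28, adjusted p = 0.63).

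PPP1R15A (ENSG00000087074, chromosome 19, 48872392 to 48876057), which encodes GADD34 and directs removal of the phosphate that slows translation, stood at 381, 402 and 359 CPM in the KO libraries, against 179, 242 and 93.6 CPM in the control libraries. The lowest KO library was above the highest control library, and the log2 fold change of 1.15 (SE 0.32, adjusted p = 0.63) was the largest of the 42. NUPR1 (ENSG00000176046, chromosome 16, 28532708 to 28539174), a small stress-induced chromatin protein, stood at 171, 149.7 and 184 CPM in the KO libraries, against 67.3, 140.3 and 64.3 CPM in the control libraries. Its groups were separate by a narrow margin, KO R2 being the lowest KO library and control R2 the highest control library, with a log2 difference of 0.89 (SE 0.32, adjusted p = 0.63).

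SESN2 (ENSG00000130766, chromosome 1, 28259527 to 28282491), encoding sestrin 2, an inhibitor of mTORC1 signalling, stood at 153, 175 and 173 CPM in the KO libraries, against 93.6, 135 and 35.8 CPM in the control libraries. Control R3 was far below the other control libraries, and the log2 fold change of 0.92 had an SE of 0.43 and an edgeR adjusted p of 0.66. GDF15 (ENSG00000130513, chromosome 19, 18374731 to 18389176), a secreted stress cytokine, stood at 24.8, 31.5 and 18.0 CPM in the KO libraries, against 12.8, 15.5 and 7.95 CPM in the control libraries, and STC2 (ENSG00000113739, chromosome 5, 173314713 to 173329503), the secreted glycoprotein stanniocalcin 2, at 489, 836 and 497 CPM in the KO libraries, against 442, 341 and 356 CPM in the control libraries. Both had every KO library above every control library, with KO R2 the highest, and their log2 fold changes were 1.03 (SE 0.31) and 0.68 (SE 0.24).

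The other 3 genes of this group overlapped between the labels. DDIT4, encoding the mTORC1 inhibitor REDD1, stood at 498, 864 and 824 CPM in the KO libraries, against 639, 743 and 264 CPM in the control libraries. CHAC1, a glutathione-degrading enzyme induced by ATF4, stood at 36.5, 80.1 and 47.0 CPM in the KO libraries, against 51.7, 45.1 and 14.0 CPM in the control libraries. In both, control R3 was the lowest of the 6 libraries and KO R2 the highest. VLDLR, the very low density lipoprotein receptor and an ATF4-induced gene, stood at 0.213, 2.23 and 0.130 CPM in the KO libraries, against 3.03, 0.0956 and 2.77 CPM in the control libraries. It divided the libraries as DAPK3 did, with KO R2 beside control R1 and R3.

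ATF4 RNA itself (ENSG00000128272, chromosome 22, 39519695 to 39522685) was at nearly the same level under both labels, at 499.6, 574 and 473 CPM in the KO libraries, against 590.0, 472 and 462 CPM in the control libraries. Its log2 fold change was 0.02 (SE 0.14, adjusted p = 0.97), and control R1 was the highest library. DDIT3, encoding CHOP, the ATF4-induced factor that promotes cell death under lasting stress, stood at 77.8, 133 and 97.5 CPM in the KO libraries, against 82.0, 89.1 and 28.3 CPM in the control libraries. Control R3 was the lowest library and KO R2 the highest, while the other 4 lay close together. ATF5 and CEBPG, bZIP factors related to or paired with ATF4, ranged from 19.3 to 26.5 and from 127 to 201 CPM in KO libraries, against 12.7 to 22.6 and 99.3 to 136 CPM in control libraries. CEBPB, another C/EBP partner, ranged from 54.9 to 63.2 CPM in KO and from 39.3 to 63.5 in control libraries. All 5 factors had overlapping groups and log2 fold changes between 0.02 and 0.63, with no adjusted p under 0.696.

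In the amino acid arm no gene passed the test, and 9 of 10 genes had log2 fold changes above 0. SLC7A5 (ENSG00000103257, chromosome 16, 87830023 to 87869488), the light chain of the LAT1 exchanger of large neutral amino acids, stood at 1338, 1361 and 1438 CPM in the KO libraries, against 875, 1244 and 994 CPM in the control libraries. Every KO library was above every control library, with a log2 difference of 0.41 (SE 0.15, adjusted p = 0.63). SLC3A2, the heavy chain that carries it to the membrane, stood at 739.6, 596 and 711 CPM in the KO libraries, against 443, 647 and 439 CPM in the control libraries. KO R2 was below control R2, so the groups overlapped, and the log2 fold change was 0.42 (SE 0.19). SLC1A5, the glutamine transporter ASCT2, had a log2 fold change of 0.11 (SE 0.13).

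Among the serine synthesis genes, PSAT1, the transaminase of the pathway, stood at 652, 730.2 and 713 CPM in the KO libraries, against 563, 649 and 505 CPM in the control libraries. All KO libraries were above all control libraries, though control R2 and KO R1 were nearly equal, for a log2 difference of 0.29 (SE 0.13, adjusted p = 0.66). PHGDH, the first enzyme of that pathway, and PSPH, its last, had log2 fold changes of 0.07 (SE 0.18) and 0.01 (SE 0.16). ASNS, asparagine synthetase and a classic ATF4 target, stood at 341, 572 and 443 CPM in the KO libraries, against 419, 391 and 362 CPM in the control libraries. KO R2 was the highest library and KO R1 the lowest, giving a log2 fold change of 0.21 (SE 0.20). SHMT2 and MTHFD2, mitochondrial enzymes of folate metabolism, had 0.27 (SE 0.22) and 0.15 (SE 0.23).

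ALDH1L2, a mitochondrial folate enzyme also induced by ATF4, was close to absent in part of the libraries, at 0, 1.86 and 0.0434 CPM in the KO libraries, against 1.42, 0.0478 and 1.56 CPM in the control libraries. Like VLDLR it followed the DAPK3 level of the library and not the label. The 42 genes summed to at least 92 counts each over the 6 libraries, and 39 had more than 100 counts in every library.

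**Figure D2:**
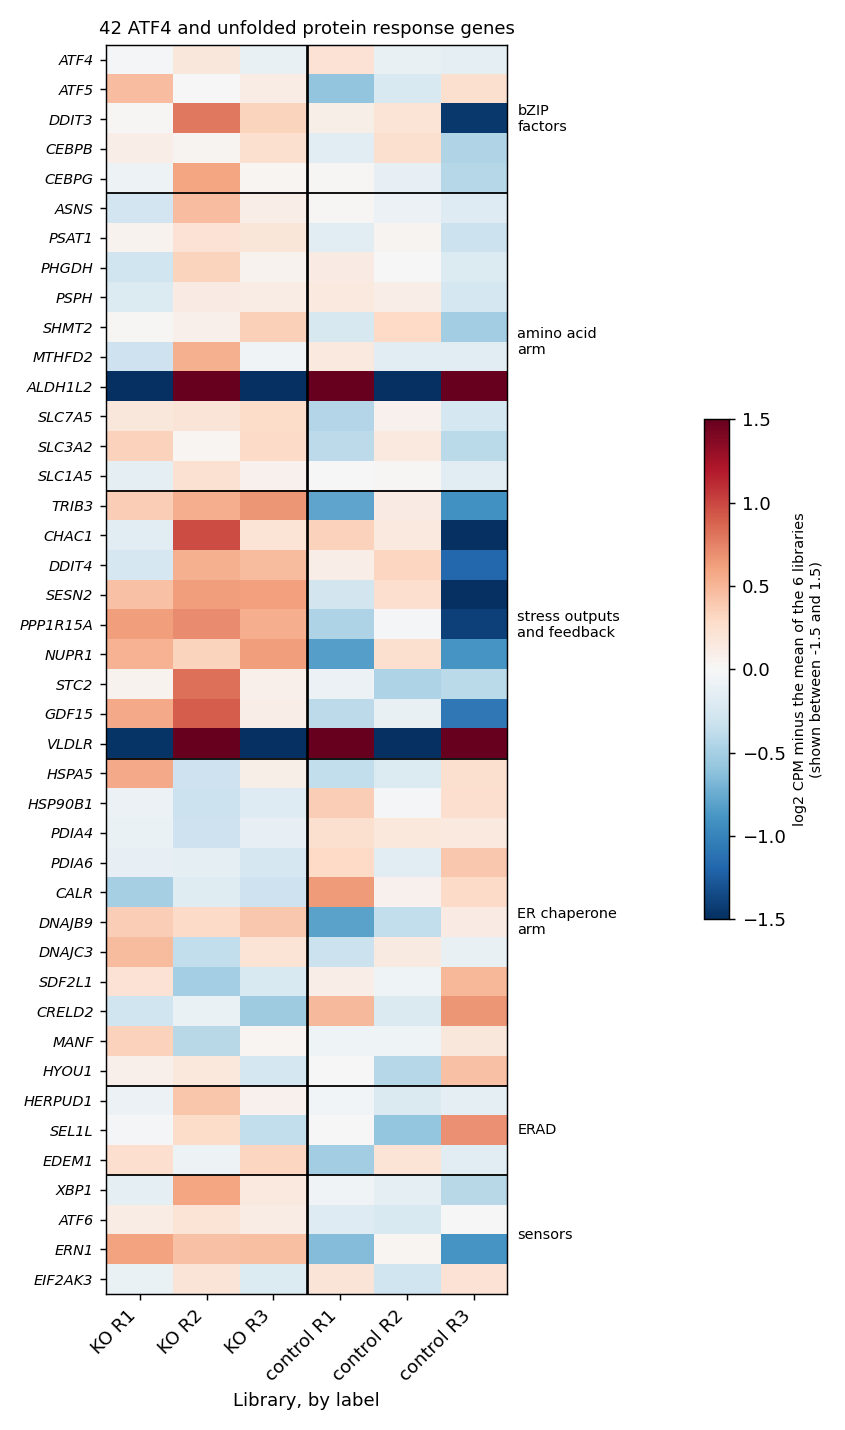
Log2 CPM of the 42 genes in each library minus the mean of the 6 libraries, with KO libraries left and control libraries right of the line and genes grouped by role; colours end at -1.5 and 1.5. Stress output genes such as TRIB3 and PPP1R15A are high in all 3 KO libraries, CALR and PDIA4 are low in them, and ALDH1L2 and VLDLR are high in KO R2, control R1 and control R3.

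In the ER chaperone arm values were more often lower than higher in the KO libraries. Its median log2 fold change was -0.34 over 11 genes, with 4 genes above and 7 below 0, beside 0.18 over the 10 genes of the amino acid arm and 0.89 over the 9 stress output genes. Single libraries moved these medians: that of the amino acid arm was 0.0025 without KO R2, 0.09 without control R3 and 0.31 without KO R1, and that of the ER chaperone arm -0.20 without KO R2 and -0.18 without control R3. CALR (ENSG00000179218, chromosome 19, 12938578 to 12944489), calreticulin, a lectin chaperone and calcium store protein, stood at 495, 617 and 564 CPM in the KO libraries, against 1093, 729 and 854 CPM in the control libraries. Every KO library was below every control library, with a log2 difference of -0.68 (SE 0.18, adjusted p = 0.63).

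HSP90B1 (ENSG00000166598, chromosome 12, 103930107 to 103953645), the ER form of HSP90 called GRP94, stood at 1278, 1084 and 1190 CPM in the KO libraries, against 1753, 1341 and 1617 CPM in the control libraries. PDIA4, a protein disulfide isomerase, stood at 357, 309.6 and 353 CPM in the KO libraries, against 455, 427 and 424 CPM in the control libraries. Both had all KO libraries below all control libraries, with log2 fold changes of -0.41 (SE 0.13) and -0.36 (SE 0.11). PDIA6, another disulfide isomerase, ranged from 402 to 440 CPM in KO and from 427 to 633 in control libraries. CRELD2, a secreted ER stress-induced protein, ranged from 16.1 to 21.8 CPM in KO and from 20.0 to 36.8 in control libraries. In both, control R2 was near the KO libraries, and the log2 fold changes were -0.37 (SE 0.16) and -0.65 (SE 0.25).

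HSPA5 (ENSG00000044574, chromosome 9, 125234853 to 125241330), the central ER chaperone BiP, did not share that pattern, at 1344, 731 and 967 CPM in the KO libraries, against 701, 791 and 1070 CPM in the control libraries. KO R1 was the highest library and control R1 the lowest, with KO R2 close to control R1, for a log2 difference of 0.25 (SE 0.26, adjusted p = 0.82). DNAJB9, a BiP co-chaperone made under IRE1 signalling, stood at 30.4, 28.7 and 31.3 CPM in the KO libraries, against 13.5, 18.2 and 25.6 CPM in the control libraries. Every KO library was above every control library, the opposite of CALR, with a log2 difference of 0.66 (SE 0.24, adjusted p = 0.63). DNAJC3, the co-chaperone P58IPK, had 0.23 (SE 0.23), SDF2L1 of the BiP complex -0.34 (SE 0.27), HYOU1, the nucleotide exchange factor of BiP, -0.05 (SE 0.23), and MANF, a secreted ER protein that binds BiP, 0.0047 (SE 0.20).

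Among the sensors, ERN1 (ENSG00000178607, chromosome 17, 64039142 to 64130819), the kinase and endonuclease IRE1, stood at 106, 94.7 and 95.9 CPM in the KO libraries, against 44.6, 71.5 and 37.9 CPM in the control libraries. All KO libraries were above all control libraries, for a log2 difference of 0.94 (SE 0.24, adjusted p = 0.63). ATF6, the membrane-bound transcription factor, stood at 161, 173 and 161 CPM in the KO libraries, against 131, 128 and 151 CPM in the control libraries, with each KO library above each control library by a smaller margin and a log2 fold change of 0.28 (SE 0.11). XBP1 stood at 287, 475 and 347 CPM in the KO libraries, against 304, 286 and 236 CPM in the control libraries, KO R1 and control R2 being nearly equal and KO R2 highest, and EIF2AK3 had a log2 fold change of -0.09 (SE 0.19). The degradation genes HERPUD1, SEL1L and EDEM1, which bring misfolded proteins to the ubiquitin system or trim their sugars, had 0.27 (SE 0.15), -0.14 (SE 0.33) and 0.30 (SE 0.21), with overlapping groups.

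**Figure D3:**
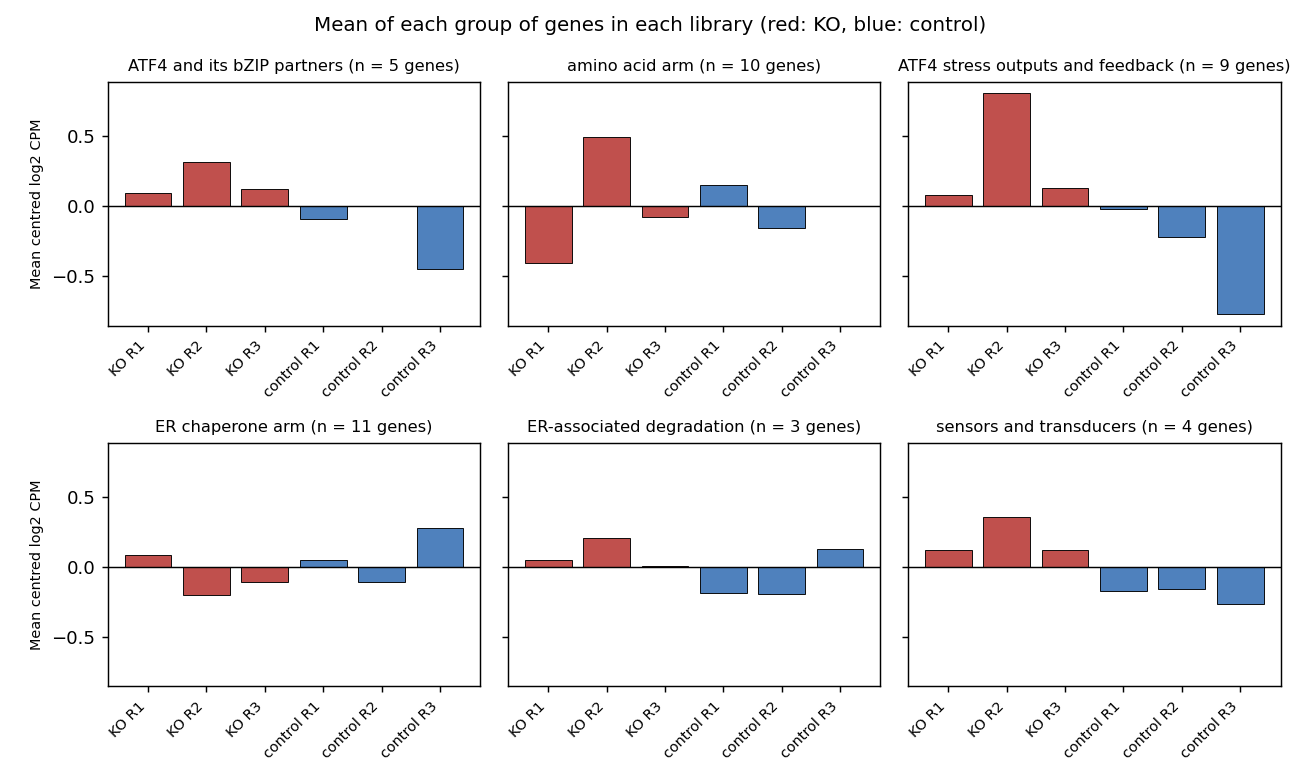
Mean over the genes of each group of log2 CPM minus the mean of the 6 libraries, for each KO library (red) and control library (blue). Stress outputs run from 0.08 to 0.80 in KO and -0.77 to -0.02 in control libraries. The bZIP factors and the sensors are likewise higher in every KO library, whereas the ER chaperone arm, the amino acid arm and ER-associated degradation overlap between the labels.

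Set against each other library by library, the amino acid arm and the ER chaperone arm did not divide by label. The mean centred log2 CPM of the amino acid arm was -0.41, 0.49 and -0.08 in the KO libraries, against 0.15, -0.16 and -0.0022 in the control libraries. That of the ER chaperone arm was 0.08, -0.20 and -0.11 in the KO libraries, against 0.05, -0.11 and 0.28 in the control libraries. The amino acid arm minus the ER chaperone arm gave -0.49, 0.70 and 0.03 in the KO libraries, against 0.10, -0.05 and -0.28 in the control libraries. KO R2 had the amino acid arm highest relative to the chaperones and KO R1 lowest, so the 2 extremes carried the same label. That order rested on ALDH1L2: without it, a step chosen after the values were seen, the difference between the arms was -0.16, 0.45 and 0.26 in the KO libraries, against -0.14, 0.15 and -0.56 in the control libraries. KO R2 was still highest, but control R3 was then lowest, and the labels still overlapped. Without VLDLR the stress outputs averaged 0.27, 0.68 and 0.41 in the KO libraries, against -0.30, 0.06 and -1.13 in the control libraries. The group of sensors stood at 0.12, 0.36 and 0.12 in the KO libraries, against -0.17, -0.16 and -0.27 in the control libraries.

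Control R3 stood apart from control R1 and R2 in the stress outputs and bZIP factors, with group means of -0.77 and -0.45. Control R1 and R2 stood at -0.02 and -0.22 in the stress outputs and at -0.09 and -0.00050 in the bZIP factors. Control R3 also had the highest mitochondrial mRNA share, 6.85%. Whether the share has a part in those values was not tested.

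With the log2 CPM of DAPK3 as a covariate in the fit of all 6 libraries, edgeR again called 0 of 14613 genes. At an unadjusted p under 0.05, 14 of the 42 (33.3%) were higher and 5 (11.9%) lower in KO libraries, against 8.44% and 8.38% of all genes. ERN1 had a label effect of 0.89 (SE 0.16, adjusted p = 0.11), NUPR1 0.83 (SE 0.16, adjusted p = 0.11), TRIB3 0.95 (SE 0.19, adjusted p = 0.11) and STC2 0.74 (SE 0.15, adjusted p = 0.11) on the log2 scale. CALR had -0.60 (SE 0.13, adjusted p = 0.12) and PDIA4 -0.37 (SE 0.098, adjusted p = 0.15).

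Without both R2 libraries, KO R1 and R3 were compared with control R1 and R3. Here 5 stress outputs, the transporter subunits SLC7A5 and SLC3A2, SHMT2, CEBPB and the sensor ERN1 rose. DNAJC3 of the ER chaperone arm and EDEM1 of ER-associated degradation rose as well. CALR, CRELD2, PDIA6 and HSP90B1 fell, as did VLDLR and ALDH1L2. Of the 42 genes, 12 (28.6%) were called higher and 6 (14.3%) lower, against 12.2% and 15.2% of the 14846 genes tested. The share called lower was thus close to that of all genes. DAPK3 level and label coincide in these 4 libraries because of how they were picked. The choice rested on these same data, so adjusted p-values of this comparison do not hold the error rate that they state. Leaving out 1 further library gave 9 to 13 genes called higher and 4 to 6 lower, and 10 of the 18 calls held in each of the 4 such fits: TRIB3, NUPR1, PPP1R15A, SESN2, ERN1 and SLC3A2 higher, and CALR, CRELD2, VLDLR and ALDH1L2 lower. The share of all 4055 called genes that held in each of these fits was not computed, so these counts have no baseline. VLDLR and ALDH1L2 passed the filter on low counts only through the control libraries, where they are high, so they had to differ. Without these 2 genes, 12 were called higher and 4 lower of 40, and 8 of the 16 calls held in every such fit.

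**Figure D4:**
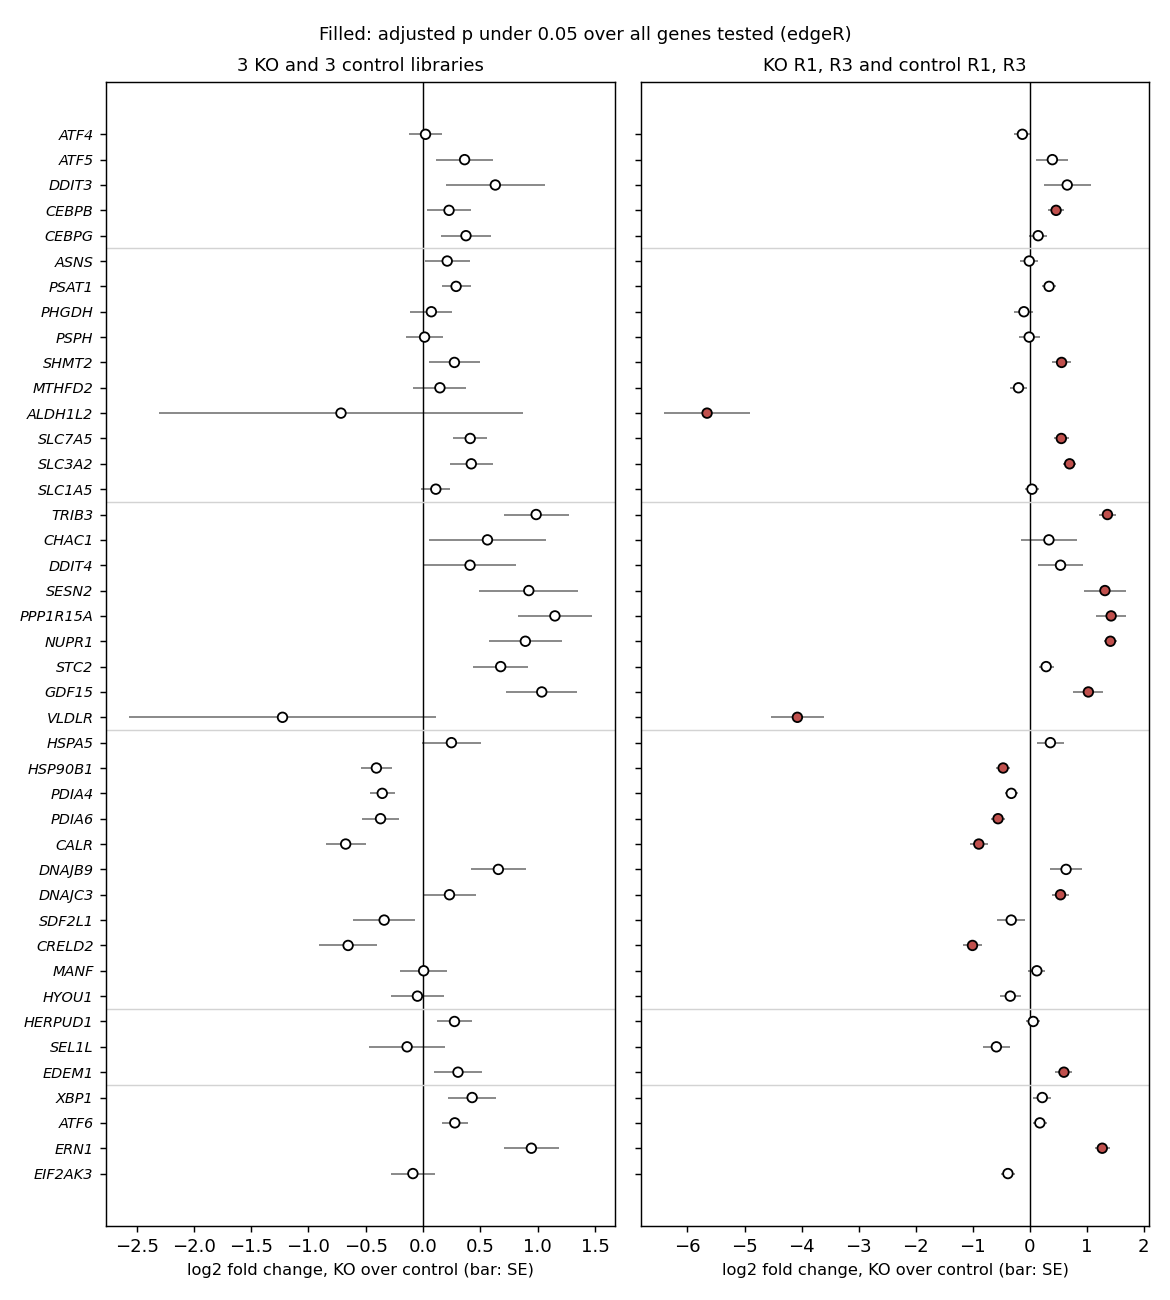
Log2 fold change of KO over control for the 42 genes with all 6 libraries (left) and without both R2 libraries (right), bars being the SE and filled points an edgeR adjusted p under 0.05 over all genes tested; the horizontal scales differ. No gene is filled on the left, while on the right 12 are filled above 0 and 6 below, ALDH1L2 and VLDLR lying far from the rest.

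Among the stress outputs 5 of 9 rose and 1, VLDLR, fell, where 12.2% of all genes were called higher and 15.2% lower. NUPR1 rose 2.67-fold, with a log2 fold change of 1.42 (SE 0.12, adjusted p = 0.00045), and PPP1R15A 2.69-fold, with 1.43 (SE 0.27, adjusted p = 0.0092). TRIB3 rose 2.58-fold, with 1.37 (SE 0.14), GDF15 2.04-fold, with 1.03 (SE 0.26), and SESN2 by 1.32 (SE 0.38) on the log2 scale. SESN2 stood at 0.78 without control R3 and 2.18 without control R1. It was lost in DESeq2 (adjusted p = 0.12) and with no low-count filter (0.065), and GDF15 without control R3 (0.080). STC2, whose groups were separate with all 6 libraries, was not called, at 0.29 (SE 0.13, adjusted p = 0.15). The bZIP factor DDIT3 and the stress outputs CHAC1 and DDIT4, with 0.66 (SE 0.41), 0.34 (SE 0.50) and 0.54 (SE 0.40), were not called. Without control R1 they stood at 1.62, 1.57 and 1.32 and were called, and without KO R1 DDIT3 stood at 0.83 (adjusted p = 0.043) and DDIT4 at 0.88 (adjusted p = 0.018). Without control R3, CHAC1 stood at -0.32.

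VLDLR fell, with 7 counts in KO R1 and R3 together against 117 in control R1 and R3, so its level was 17.3-fold higher in those control libraries (95% exact interval 8.16 to 44.1). ALDH1L2 fell, with 1 count against 60, a level 62.3-fold higher in the control libraries (95% exact interval 10.8 to 2499). These intervals cover counting error only. Both genes passed the low-count filter only through these control libraries, so the intervals do not test whether the genes differed.

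In the amino acid arm 3 of 10 genes rose and 1 fell, against 12.2% and 15.2% of all genes. The gene that fell was ALDH1L2, which had to differ. The median log2 fold change of the arm was 0.02 beside -0.02 over all genes. That median was -0.13 without KO R3, -0.08 without control R3 and 0.17 without KO R1 or without control R1. SLC3A2 rose 1.63-fold, with 0.70 (SE 0.11, adjusted p = 0.0052), its partner SLC7A5 1.47-fold, with 0.56 (SE 0.13, adjusted p = 0.02), and SHMT2 1.48-fold, with 0.56 (SE 0.16, adjusted p = 0.041). SLC7A5 was not called without KO R3 (adjusted p = 0.057) or without control R1 (0.0997), and SHMT2 not without KO R3 (0.15) or control R3 (0.17). ASNS, PHGDH, PSPH and MTHFD2, at -0.0061 (SE 0.16), -0.10 (SE 0.17), -0.0073 (SE 0.18) and -0.19 (SE 0.15), were not called. PSAT1, whose groups were separate with all 6 libraries, was not called either, at 0.34 (SE 0.12, adjusted p = 0.080). CEBPB was the bZIP factor called, at 0.46 (SE 0.14, adjusted p = 0.0496), and was not called without KO R3 (adjusted p = 0.15) or control R3 (0.23).

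In the ER chaperone arm 4 of 11 genes fell and 1 rose, against 15.2% and 12.2% of all genes. The median was -0.32, or -0.11 without control R3, -0.19 without KO R3 and -0.50 without KO R1. CRELD2 fell to 18.9 and 16.1 CPM in the KO pair, against 32.5 and 36.8 CPM in the control pair, a fitted ratio of 0.499 (edgeR adjusted p = 0.0053). CALR fell to 495 and 564 CPM, against 1093 and 854 CPM, with -0.89 (SE 0.15, adjusted p = 0.007). PDIA6, at -0.55 (SE 0.12, adjusted p = 0.015), was not called without KO R3 (adjusted p = 0.054) or control R3 (0.064), and HSP90B1, at -0.46 (SE 0.12, adjusted p = 0.028), lost its call whichever further library was left out (0.059 to 0.15). The ERSE-bearing promoters printed above are those of these 4 genes because they passed the test. The other genes that held the element were not called, HSPA5 at 0.36 (SE 0.23, adjusted p = 0.29) and XBP1 at 0.22 (SE 0.16, adjusted p = 0.35). PDIA4, at -0.32 (SE 0.11, adjusted p = 0.072), and DNAJB9, at 0.64 (SE 0.28, adjusted p = 0.14), were not called, though their groups were separate with all 6 libraries. DNAJC3 rose, at 0.54 (SE 0.14, adjusted p = 0.031), but not without KO R1 (adjusted p = 0.089) or control R1 (0.14).

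ERN1 rose 2.42-fold, with 1.27 (SE 0.13, adjusted p = 0.0011), while ATF6, XBP1 and EIF2AK3 stood at 0.18 (SE 0.12), 0.22 (SE 0.16) and -0.38 (SE 0.13) and were not called. EDEM1, a lectin of ER-associated degradation, rose, at 0.60 (SE 0.15, adjusted p = 0.024), and was not called without control R1 (adjusted p = 0.10). SEL1L, a subunit of the ubiquitin ligase complex, stood at -0.58 (SE 0.23) and was not called, though it was in DESeq2 (adjusted p = 0.040).

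The R2 libraries, left out of that comparison, were then placed by whether each lay nearer, in log2 CPM, to the mean of KO R1 and R3 or to that of control R1 and R3, a measure chosen after the values were seen. Of all 4055 genes called, both R2 libraries were nearer to the other label in 68.0% and KO R2 was nearer to its own label in 27.7%. Of the 18 called genes described here, both were nearer to the other label in 4 (22.2%), namely ALDH1L2, VLDLR, DNAJC3 and EDEM1, and KO R2 was nearer to its own label in 14 (77.8%). In 13 of those 14, control R2 was nearer to the KO libraries as well, and HSP90B1, PDIA6, TRIB3, NUPR1 and ERN1 were among them. In CALR both R2 libraries were nearer to their own label. ALDH1L2 and VLDLR, which had to differ, count in the shares of the 18, and genes of that kind were not removed from the 4055. The difference between these shares was not tested.

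Other genes of the pathway gave the counts below without both R2 libraries, where 12.2% of all genes were called higher and 15.2% lower. Differences from these shares were not tested. Of 14 further ATF4 metabolic and transport targets 5 rose and 1 fell, with PYCR1, of proline synthesis, at 0.82 (SE 0.12, adjusted p = 0.0034), the glycine transporter SLC6A9 at 0.81 (SE 0.13, adjusted p = 0.005) and the neutral amino acid transporter SLC38A2 lower at -0.72 (SE 0.13, adjusted p = 0.0082). Of 13 aminoacyl-tRNA synthetase and tRNA export genes 2 rose and 0 fell, SARS at 0.42 (SE 0.12, adjusted p = 0.038) and IARS at 0.38 (SE 0.12, adjusted p = 0.048), while WARS stood at 0.41 (SE 0.13). With all 6 libraries, 6 of those 13 had every KO library above every control library, against 6.97% of all genes. Of 10 core genes of the integrated stress response 0 rose and 1 fell, the kinase PKR (EIF2AK2) at -0.52 (SE 0.13, adjusted p = 0.025), with the kinases EIF2AK1 at -0.36 (SE 0.11) and EIF2AK4 at -0.35 (SE 0.14).

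Of 21 further ER folding and translocation genes 1 rose and 4 fell, including the oxidase ERO1A at -0.71 (SE 0.12, adjusted p = 0.0065), the disulfide isomerase PDIA5 at -0.89 (SE 0.19, adjusted p = 0.014) and the folding sensor UGGT1 at -0.54 (SE 0.12, adjusted p = 0.019). Of 15 further degradation and processing genes tested 1 rose and 0 fell, CREB3, an ER-bound transcription factor, at 0.91 (SE 0.12, adjusted p = 0.0028), with EDEM2 at -0.46 (SE 0.14) and SYVN1 at 0.39 (SE 0.18). The median log2 fold change was 0.30 for the metabolic and transport targets, 0.21 for the synthetases, -0.11 for the stress response core, 0.06 for the folding genes and -0.08 for the degradation genes. Markers moved in the same 4 libraries: all 4 mesenchymal genes fell, with FN1 at -3.09 (SE 0.14, adjusted p = 5.8e-05) and VIM at -0.98 (SE 0.18, adjusted p = 0.0088), KRT8 fell, at -1.08 (SE 0.17), and KRT18 rose, at 0.53 (SE 0.12). ERBB2 fell, at -0.86 (SE 0.12, adjusted p = 0.0029). PTPRC, which encodes the leukocyte protein CD45, divided the libraries as DAPK3 did. It stood at 0.106, 3.28 and 0 CPM in the KO libraries, against 2.98, 0.0478 and 2.92 CPM in the control libraries. It was called lower without both R2 libraries, but passed the low-count filter there only through the control libraries, so it had to differ. Of other blood markers, CD3E had 0 counts in KO libraries and at most 1 in a control library, and HBA1 ranged from 0.347 to 2.54 CPM in KO and from 0.928 to 2.26 CPM in control libraries. Their part in the values above was not tested.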

How the data were processed

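Polyadenylated RNA of 6 SUM159 libraries was sequenced, and the authors deposited expected counts per gene from RSEM, which with Bowtie2, edgeR and GRCh38 is named in the submitters' processing notes. For versions, annotation release and strand setting the sources used here state nothing. Counts were rounded and tested with edgeR 4.0.16 in R 4.3.3 (filterByExpr, TMM, quasi-likelihood test, Benjamini-Hochberg adjustment over all genes tested, threshold 0.05), which gave every adjusted p in the text where no other tool is named. SE is the absolute log2 fold change over the square root of F. CPM used TMM library sizes, and centred log2 CPM a prior count of 0.5. Coordinates are those of GENCODE 29 (GRCh38), where 20 of the 42 genes overlap a gene on the opposite strand, whose reads may not be told apart. The members, lists and comparison without both R2 libraries were chosen with earlier results of these data known. All 42 members were named, with up to 3 genes of each other list by smallest p without R2. Alternatives were another normalization, filter or tool, a replicate block, and leaving out libraries. Another marker gene is not reported here.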

Additional observations from a re-analysis of the deposited data

How the results depend on the processing

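With all 6 libraries, edgeR called 0 genes under each other scaling and filter, and limma-voom also called 0. DESeq2 called 114 of 14613 genes and 2 of the 42, PPP1R15A (adjusted p = 0.043) and ERN1 (0.037). Leaving out both R2 libraries gave 4055 of 14846 genes and 18 of the 42. Within that comparison DESeq2 called 3888 of 14846 genes, with 11 of the 42 higher and 7 lower. No low-count filter gave 3219 of 26108 genes, with 9 of the 42 higher and 6 lower. The calls of CEBPB (edgeR adjusted p = 0.094), SHMT2 (0.061) and SESN2 (0.065) were lost there. Leaving out 1 more library gave 2543 (without control R1) to 3700 genes, and the ER chaperone median ran from -0.50 (without KO R1) to -0.11 (without control R3), that of the amino acid arm from -0.13 (without KO R3) to 0.17 (without KO R1). In such fits the lone library is assumed to vary like the other group. Same-numbered libraries deviated in opposite directions (correlations -0.63, -0.85 and -0.67). So did KO R1 and control R3 (-0.37) and KO R3 and control R1 (-0.60). The crossing of both R2 libraries sets these signs, so these correlations cannot show whether the numbers pair libraries. A replicate block gave 0 genes with all 6 libraries. Without both R2 libraries it gave 2705 of 14846 genes, with 8 of the 42 higher and 4 lower. With that block CEBPB (edgeR adjusted p = 0.12), SHMT2 (0.095), SLC7A5 (0.077), DNAJC3 (0.073), PDIA6 (0.067) and HSP90B1 (0.14) were no longer called. A crossed replicate block, chosen after seeing the data (correlation -0.26), gave 6149 of 14846 genes, with 18 of the 42 higher and 10 lower. None of the 18 called genes changed sign in any alternative run, whereas 9 uncalled genes did, and with all 6 libraries 10 of the 42 did. ALDH1L2 and VLDLR were limited by depth.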
